A study of Mus musculus with 20 samples.

Results

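Thbd, Procr, Tfpi, F3, F8 and Plat are 6 genes by which endothelium controls clotting and the breakdown of clots. They were chosen by name out of the 42374 genes obtained by summing estimated transcript counts per gene, and were followed through 20 RNA sequencing libraries of endothelial cells sorted as CD31+ and CD45- from C57BL/6N mouse muscle. The 4 groups held 5 libraries each, numbered here by their replicate. Oxidative Atf4 ECKO was soleus endothelium of mice with an endothelial deletion of Atf4, and oxidative WT was soleus endothelium of wild type mice. Glycolytic Atf4 ECKO and glycolytic WT were the same genotypes in the extensor digitorum longus. All mice, wild type included, received 1 mg tamoxifen per day on 5 days at 8 to 10 weeks of age, with at least 7 days before use. The controls were Cre-negative littermates. The labels do not name the promoter that drives Cre or say how many animals a library stands for. All p-values rest on the variation among these libraries alone, and this could be technical in origin.

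Thrombin, which turns fibrinogen into fibrin, is held in check by endothelium at several steps. Thrombomodulin (Thbd) binds thrombin on the cell surface and turns it towards activation of protein C, which the endothelial protein C receptor (Procr) presents to it. Tissue factor (F3) starts clotting by binding factor VIIa, and tissue factor pathway inhibitor (Tfpi) blocks that complex and factor Xa. Factor VIII (F8) speeds the formation of factor Xa, and tissue plasminogen activator (Plat) turns plasminogen into plasmin, which dissolves fibrin. Resting endothelium is known for ample thrombomodulin and little tissue factor.

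Library totals ran between 8013223 and 21720126 estimated counts. Atf4 averaged 8.29 CPM (library-scaled counts, TMM-normalised) in oxidative ECKO against 554 CPM in oxidative WT, and 7.38 CPM in glycolytic ECKO against 262 CPM in glycolytic WT, so all 10 ECKO libraries fit their labels. Sex-specific RNA did not run evenly over the groups. All 10 WT libraries carried Y-linked RNA and at most 0.274 CPM of the X-inactivation transcript Xist, while the glycolytic ECKO libraries held at most 1.35% of the oxidative WT level of Y-linked RNA and 59.3 to 66.4 CPM of Xist. In glycolytic muscle, genotype and sex therefore cannot be told apart. Oxidative ECKO libraries 1, 2 and 3 held 56.6%, 57.5% and 28.2% of the oxidative WT level of Y-linked RNA together with Xist, and libraries 4 and 5 held 0.817% and 0.961%. Xist stood at 18.6, 18.0 and 43.8 CPM in libraries 1 to 3 and at 81.55 and 76.2 CPM in libraries 4 and 5. Sex-specific RNA thus also differed between the genotypes in oxidative muscle and between the muscles in ECKO, and the interaction shares this. Pan-endothelial markers (9 of 9 above 1 CPM in every group) summed to 7570 to 7870 CPM in oxidative ECKO against 7440 to 7770 CPM in oxidative WT, and to 6890 to 7010 CPM in glycolytic ECKO against 8120 to 8350 CPM in glycolytic WT. In such bulk samples, fewer cells of a type and less RNA per cell cannot be told apart.

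All 6 genes passed the filter on low counts and were tested among 13971 genes. In oxidative muscle, Procr, Thbd and Tfpi were lower and Plat was higher in ECKO than in WT, and F3 and F8 did not pass the test. These are 4 of 6 genes called at an adjusted p below 0.05, where 32% of all tested genes were called (14.6% higher and 17.4% lower). In glycolytic muscle, Procr was lower and F3 and Plat were higher in ECKO, which is 3 of 6 beside 29% of all genes (13.9% higher and 15.1% lower). Between the muscles, Thbd, Procr and F3 were higher in oxidative than in glycolytic WT, 3 of 6 beside 32.4% of all genes (16.4% higher and 15.9% lower). In ECKO the muscles differed in Procr alone among the 6, beside 18.4% of all genes (8.31% higher and 10.1% lower), and the direction was opposite to that in WT. The effect of genotype itself differed between the muscles (the interaction) for Procr, Thbd and F3, 3 of 6, all with a negative sign, beside 22.6% of all genes (10.1% positive and 12.5% negative). Each group enters several of these comparisons, so they share libraries and are not independent of each other. With only 6 genes, the distance of these counts from the background was not tested.

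**Figure D1:**
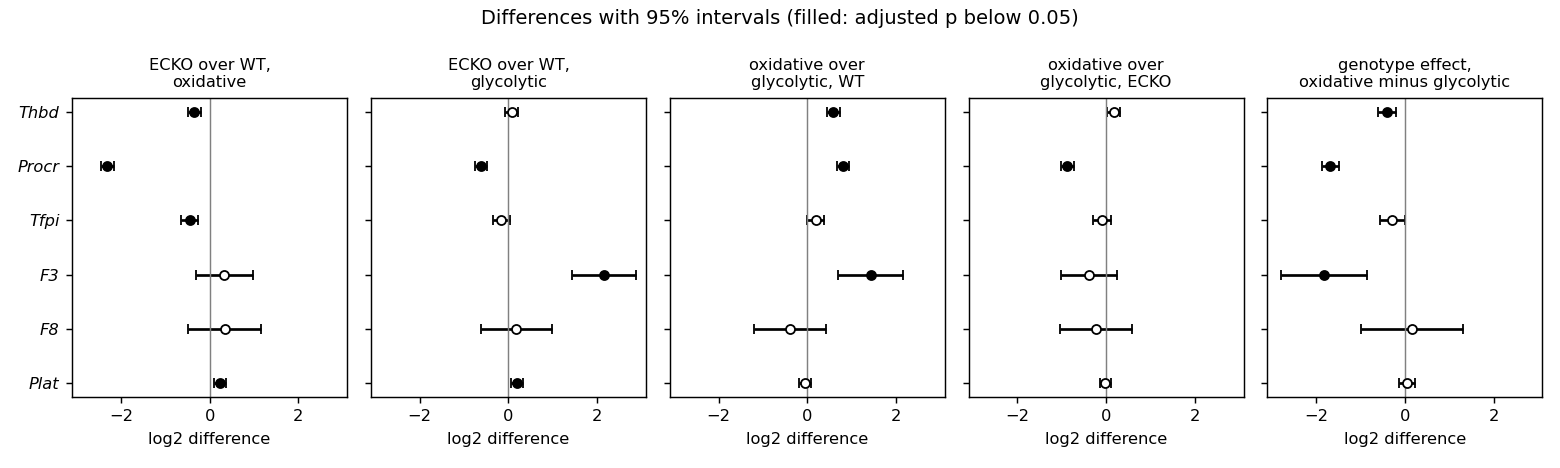
Log2 differences of the 6 genes with 95% confidence intervals in 5 comparisons (edgeR's quasi-likelihood test, x axis in log2 units; filled points have an adjusted p below 0.05). Procr lies left of 0 in both comparisons of genotype (-2.31 and -0.63) and right of 0 between muscles in WT (0.81), and F3 has its largest difference in glycolytic muscle (2.15).

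Procr (ENSMUSG00000027611.12, chromosome 2, 155751117 to 155755471, plus strand, GRCm38) showed the largest difference of the 6 genes in oxidative muscle. It stood at 56.4, 59.2, 60.9, 43.7 and 64.7 CPM in the oxidative ECKO libraries, against 258, 284, 307, 290 and 278 CPM in oxidative WT. In glycolytic muscle it stood at 108, 104, 105, 100.0 and 108 CPM in ECKO, against 156, 166, 169, 155 and 164 CPM in WT. No 2 of the 4 groups overlapped, with oxidative WT at the top, glycolytic WT next, glycolytic ECKO below it and oxidative ECKO at the bottom. The oxidative ECKO mean was 20.1% of the oxidative WT mean, a log2 difference of -2.31 (SE 0.07, edgeR's quasi-likelihood test, adjusted p = 1.6e-19). The glycolytic ECKO mean was 64.8% of the glycolytic WT mean (-0.63, SE 0.067, adjusted p = 5.6e-08). The fall was larger in oxidative muscle, with an interaction of -1.68 (SE 0.096, adjusted p = 7.4e-13). The order of the muscles was thereby turned round: oxidative muscle held 54.2% of the glycolytic level in ECKO (-0.88, adjusted p = 9.3e-10), whereas it held 1.75 times the glycolytic level in WT (0.81, adjusted p = 2.2e-10). The oxidative ECKO libraries with and without Y-linked RNA both lay far below WT, with log2 differences of -2.26 for libraries 1 to 3 and -2.37 for libraries 4 and 5. Both sets held Xist, unlike WT, so neither is free of a difference in sex-specific RNA.

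Nearly all Procr counts were assigned to Procr-201, the protein-coding transcript of 4 exons and 1597 bases. It fell by 2.37 on the log2 scale in oxidative muscle (SE 0.07, adjusted p = 1.7e-14) and by 0.73 in glycolytic muscle (SE 0.067, adjusted p = 4e-07), in a fit over 34007 transcripts of which 9.7% and 9.08% were called. Procr-203, a processed transcript of 3 exons without an annotated coding sequence, held 7.92% ± 2.5 of the gene's counts in oxidative ECKO against 3.3% ± 0.65 in oxidative WT (SD, n = 5 each). In glycolytic muscle its share was 7.85% ± 3.2 in ECKO against 2.76% ± 0.6 in WT. The share of this form was about as high in both ECKO groups, although total Procr was not. Its own level was not called in either comparison of genotype (-0.98, adjusted p = 0.056, and 0.87, adjusted p = 0.1, edgeR's quasi-likelihood test). It was called in the interaction (-1.84, adjusted p = 0.013) and between muscles in WT (1.06, adjusted p = 0.038). Procr-204, a retained-intron form at 1.07% of the counts in oxidative WT, was lower in oxidative ECKO than in oxidative WT (-3.75, adjusted p = 0.00069).

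The RefSeq promoter window of Procr is shown because this gene had the largest change in oxidative muscle, and that of F3 because it had the largest in glycolytic muscle. Each covers 250 bases before to 50 bases after the RefSeq start on GRCm38.p6. Capitals mark matches to 6 motifs searched on both strands: the C/EBP-ATF composite element TGATGNAAT, the cyclic AMP response element TGACGTCA, the AP-1 element TGANTCA, the Kruppel-like factor element CCACNCCC, an NF-kappaB-like element and the antioxidant response element TGACNNNGC, the last of which was added after the data were seen.
Procr, chr2:155750967-155751266, plus strand: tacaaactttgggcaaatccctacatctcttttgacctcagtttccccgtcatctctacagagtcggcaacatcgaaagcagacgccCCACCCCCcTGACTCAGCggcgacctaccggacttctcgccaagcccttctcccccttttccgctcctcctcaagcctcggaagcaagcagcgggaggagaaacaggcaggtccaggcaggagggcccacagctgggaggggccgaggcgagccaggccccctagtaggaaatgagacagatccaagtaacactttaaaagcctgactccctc
F3, chr3:121723287-121723586, plus strand: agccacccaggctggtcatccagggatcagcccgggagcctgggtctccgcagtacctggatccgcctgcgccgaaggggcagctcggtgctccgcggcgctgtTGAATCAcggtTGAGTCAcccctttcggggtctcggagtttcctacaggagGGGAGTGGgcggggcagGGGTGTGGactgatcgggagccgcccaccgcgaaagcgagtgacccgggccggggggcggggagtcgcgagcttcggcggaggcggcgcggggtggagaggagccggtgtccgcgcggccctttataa
The Procr window held a Kruppel-like factor match at base 88, and at base 97 an AP-1 match that an antioxidant response element match overlaps, counted from 1 at the 5′ end. The F3 window held AP-1 matches at bases 105 and 116 and Kruppel-like factor matches at bases 156 and 173. Neither window held the composite, cyclic AMP or NF-kappaB-like letters, and the windows of F8 and Tfpi held none of the 6. No window was available for Thbd and Plat, so they were not searched. Of 32851 promoters in the table, 7.81% hold TGANTCA, 17.6% CCACNCCC, 12.4% TGACNNNGC, 1.63% the NF-kappaB-like element, 1.79% TGACGTCA and 0.965% TGATGNAAT. These are matches of letters and not measured binding.

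**Figure D2:**
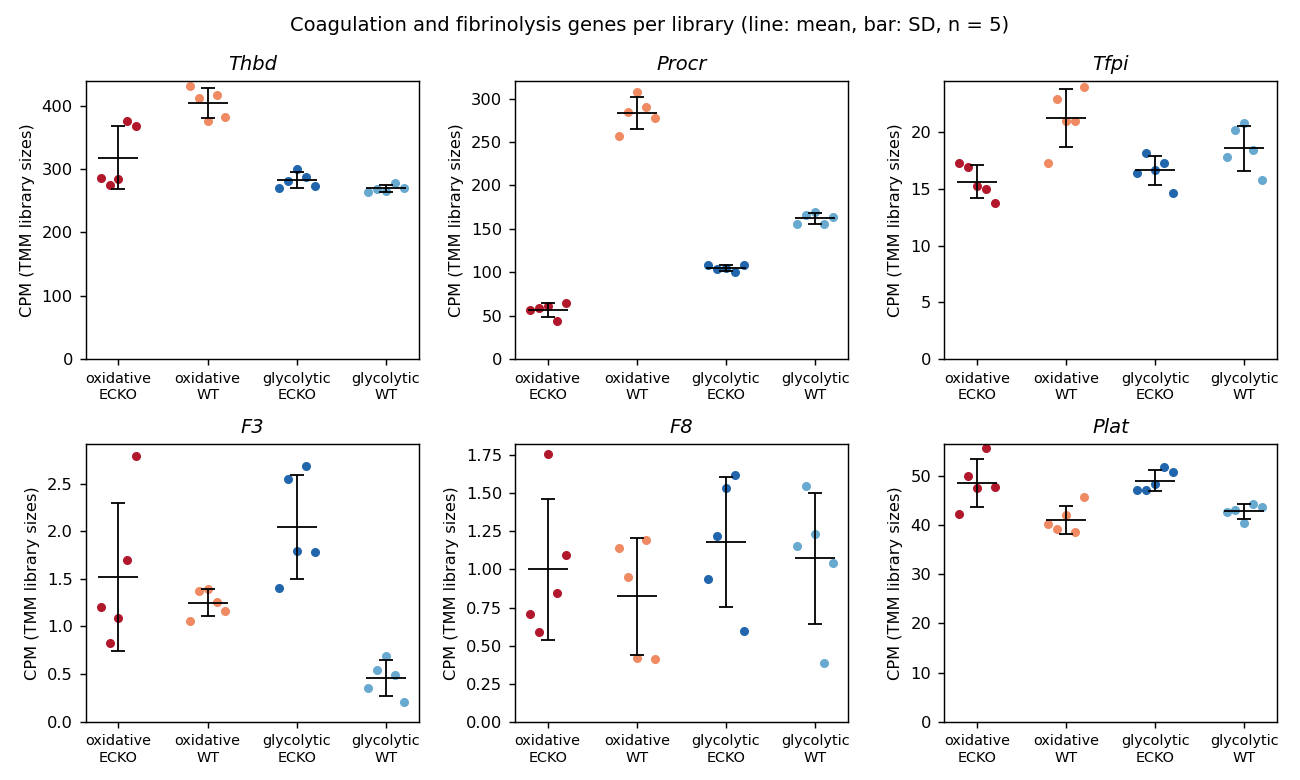
CPM of the 6 genes in each of the 20 libraries (points), with the mean (line) and SD (bar) of each group of 5, on axes that start at 0. The 4 groups of Procr do not overlap, the oxidative ECKO libraries of Thbd lie in a lower set of 3 and an upper set of 2, and F3 and F8 lie below 3 CPM throughout.

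Thbd (ENSMUSG00000074743.4, chromosome 2, 148404466 to 148408188, minus strand), a gene of a single exon, was lower in ECKO in oxidative muscle but was not called in glycolytic muscle. It stood at 286, 274, 284, 376 and 367 CPM in the oxidative ECKO libraries, against 430, 413, 376, 417 and 382 CPM in oxidative WT. ECKO libraries 1 to 3 lay well below every WT library, while library 4 was level with the lowest WT library and library 5 just below it. The difference was -0.34 on the log2 scale (SE 0.07, edgeR's quasi-likelihood test, adjusted p = 0.00035). The libraries that split are those that differ in sex-specific RNA: with libraries 1 to 3 alone, which carry Y-linked RNA, the difference was -0.51 (adjusted p = 3.8e-09), and with libraries 4 and 5 alone, which lack it, -0.12 (adjusted p = 0.13). Fibroblast markers split the same way, at 61.9, 63.2 and 220 CPM in libraries 1 to 3 and 428 and 416 CPM in libraries 4 and 5. They summed to 140 to 329 CPM in oxidative WT, with all 8 of them above 1 CPM in both groups. Fibre markers stood at 174, 185 and 200 CPM against 237 and 242 CPM, and at 88.0 to 178 CPM in oxidative WT. Immune markers split the other way, at 73.5, 68.2 and 66.9 CPM against 47.3 and 33.9 CPM. In oxidative WT they summed to 241 to 320 CPM. The part of sex or of these cells in the Thbd difference was not tested. In glycolytic muscle Thbd stood at 270, 282, 300.5, 288 and 273 CPM in ECKO, against 264, 268, 266, 278 and 270 CPM in WT. These groups overlapped, and the difference was 0.07 (95% interval -0.08 to 0.21, adjusted p = 0.5). In WT, oxidative muscle held more than glycolytic muscle (0.58, SE 0.07, adjusted p = 2.7e-07), with no overlap. Cell type marker sums also differed between the WT muscles and are given with F3 below. In ECKO Thbd differed by 0.17 between the muscles (95% interval 0.02 to 0.31, adjusted p = 0.1), and without oxidative ECKO replicate 2 by 0.22 (adjusted p = 0.033). The interaction was -0.41 (SE 0.099, adjusted p = 0.0029), and -0.19 (adjusted p = 0.067) with libraries 4 and 5 alone for oxidative ECKO.

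**Figure D3:**
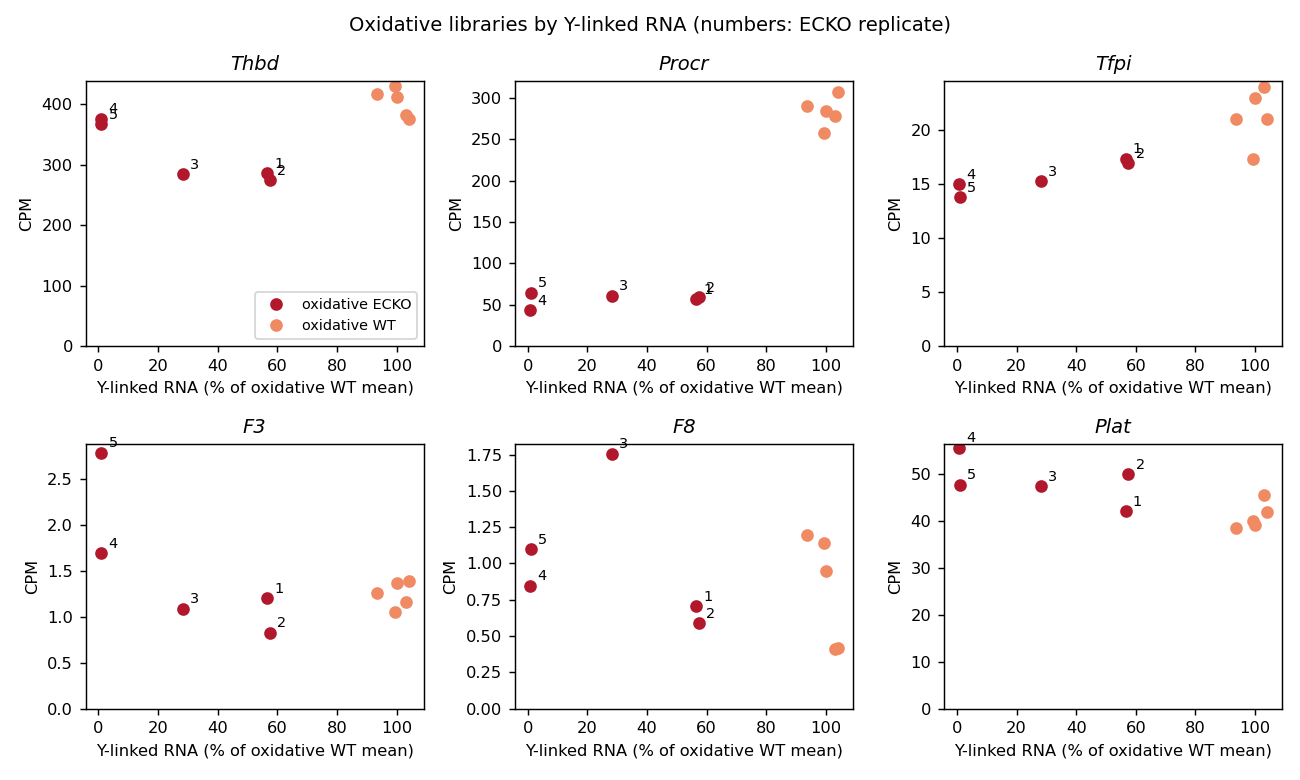
CPM of each gene (y axis) against Y-linked RNA as a percentage of the oxidative WT mean (x axis) in the oxidative libraries, with ECKO libraries numbered by replicate. Thbd lies at 274 to 286 CPM in ECKO libraries 1 to 3 and at 367 to 376 CPM in libraries 4 and 5, F3 is highest in library 5 (2.79 CPM), and Procr lies at 43.7 to 64.7 CPM in all 5.

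Tfpi (ENSMUSG00000027082.15, chromosome 2, 84432855 to 84476775, minus strand), the inhibitor of the start of clotting, was lower in ECKO in oxidative muscle. It stood at 17.3, 16.9, 15.3, 15 and 13.8 CPM in oxidative ECKO, against 17.3, 22.9, 21.03, 20.99 and 24.0 CPM in oxidative WT. WT libraries 2 to 5 lay above every ECKO library, and WT library 1 lay within the ECKO range. The difference was -0.45 (SE 0.096, edgeR's quasi-likelihood test, adjusted p = 0.00062). In glycolytic muscle it stood at 16.4, 18.2, 16.7, 17.3 and 14.6 CPM in ECKO, against 17.8, 20.2, 20.8, 18.4 and 15.8 CPM in WT, and the difference was -0.16 (95% interval -0.36 to 0.04, adjusted p = 0.24). The interaction was -0.29 (95% interval -0.57 to -0.01, adjusted p = 0.13), so a difference between the muscles in the effect of genotype was not shown. Between the muscles Tfpi was not called in WT (0.19, adjusted p = 0.12) or in ECKO (-0.10, adjusted p = 0.56). Without oxidative WT replicate 1, the difference between muscles in WT was 0.26 (adjusted p = 0.032) and the interaction -0.36 (adjusted p = 0.047). Its counts were spread over several transcripts, and neither of those with the largest shares, Tfpi-201 and Tfpi-205, was called between genotypes.

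F3 (ENSMUSG00000028128.13, chromosome 3, 121723537 to 121735048, plus strand), the tissue factor gene, was near the lower limit of what these libraries can measure, at 4 to 61 counts a library. In glycolytic muscle it stood at 1.41, 2.55, 1.79, 2.68 and 1.78 CPM in ECKO, against 0.355, 0.547, 0.693, 0.495 and 0.208 CPM in WT. Every ECKO library lay above every WT library, with a mean 4.44 times as high, a log2 difference of 2.15 (SE 0.35, edgeR's quasi-likelihood test, adjusted p = 3e-05). In oxidative muscle F3 stood at 1.20, 0.827, 1.09, 1.70 and 2.79 CPM in ECKO, against 1.06, 1.37, 1.40, 1.26 and 1.17 CPM in WT. These groups overlapped, and the difference was 0.33 (95% interval -0.32 to 0.98, adjusted p = 0.46). Its sign rests on library 5: without oxidative ECKO replicate 5 the difference was -0.04 (adjusted p = 0.94), and with the libraries that carry Y-linked RNA alone -0.23 (adjusted p = 0.69). In WT, F3 was 2.72 times as high in oxidative as in glycolytic muscle, with no overlap (1.43, SE 0.36, adjusted p = 0.0028), and in ECKO it was not called between the muscles (-0.39, 95% interval -1.02 to 0.25, adjusted p = 0.44). The interaction was -1.82 (SE 0.47, adjusted p = 0.0055), and -1.28 (adjusted p = 0.074) with oxidative ECKO libraries 4 and 5 alone. In the fit over 34007 transcripts, the protein-coding F3 transcript of 6 exons was called between genotypes in glycolytic muscle (2.11, adjusted p = 0.031). That call was lost without the low-count filter (2.04, adjusted p = 0.1). The transcript was not called between muscles in WT (1.32, adjusted p = 0.22) or in the interaction (-1.91, adjusted p = 0.21). Its mean share of F3 counts was 100% in glycolytic ECKO, 98.2% in glycolytic WT, 92.3% in oxidative WT and 76.8% in oxidative ECKO. F3 is also made by cells around vessels. The 8 pericyte and smooth muscle markers, all above 1 CPM, summed to 1970 to 2030 CPM in glycolytic ECKO against 828 to 844 CPM in glycolytic WT, most of it from Acta2 (1024 against 189 CPM) and Tagln (519 against 130 CPM). Pdgfrb and Rgs5 of the same list stood lower in glycolytic ECKO (24.9 and 363 CPM) than in glycolytic WT (34.7 and 415 CPM), and the part of these cells in the F3 difference was not tested. The 8 fibroblast markers summed to 121 to 128 CPM in glycolytic ECKO, with 8 at or above 1 CPM, against 50.8 to 59.6 CPM in glycolytic WT, with 6. Among them Dcn averaged 37.8 and 12.9 CPM and Col1a1 21.7 and 8.92 CPM in glycolytic ECKO and glycolytic WT. The 10 muscle fibre markers summed to 118 to 120 CPM in glycolytic ECKO against 40.4 to 45.2 CPM in glycolytic WT, with 7 at or above 1 CPM in both. The part of fibroblasts and fibres in the F3 difference was not tested either. Between the muscles in WT, fibroblast markers summed to 140 to 329 CPM in oxidative against 50.8 to 59.6 CPM in glycolytic muscle. Fibre markers summed to 88.0 to 178 CPM against 40.4 to 45.2 CPM, and immune markers had medians of 294 and 19.7 CPM. Pericyte and smooth muscle markers went the other way (576 to 674 against 828 to 844 CPM). The part of these cells in the differences of F3, Thbd and Procr between WT muscles was not tested.

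F8 (ENSMUSG00000031196.13, X chromosome, 75172715 to 75382615, minus strand), which encodes clotting factor VIII, was not called in any of the 5 comparisons. It ranged between 0.591 and 1.76 CPM in oxidative ECKO, 0.412 and 1.19 CPM in oxidative WT, 0.594 and 1.62 CPM in glycolytic ECKO, and 0.385 and 1.55 CPM in glycolytic WT. The 4 ranges overlapped throughout. The difference between ECKO and WT was 0.34 in oxidative muscle (95% interval -0.49 to 1.16, edgeR's quasi-likelihood test, adjusted p = 0.57) and 0.18 in glycolytic muscle (95% interval -0.62 to 0.97, adjusted p = 0.78). Intervals of this width leave room for about a doubling in either muscle. Since F8 is X-linked and the groups differ in sex-specific RNA, sex and genotype cannot be told apart for it in glycolytic muscle. Every oxidative ECKO library also held Xist, so sex and genotype are not cleanly separated in oxidative muscle either. The gene overlaps Fundc2 on the other strand, with no shared exon bases.

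Plat (ENSMUSG00000031538.6, chromosome 8, 22757727 to 22782844, plus strand), the tissue plasminogen activator gene, was slightly higher in ECKO in both muscles. It stood at 42.2, 49.99, 47.5, 55.7 and 47.8 CPM in oxidative ECKO, against 40.2, 39.2, 42.0, 38.6 and 45.7 CPM in oxidative WT. ECKO library 1 lay within the WT range and the other 4 above it, with a difference of 0.24 (SE 0.063, edgeR's quasi-likelihood test, adjusted p = 0.0048). In glycolytic muscle it stood at 47.1, 47.1, 48.5, 51.8 and 50.8 CPM in ECKO, against 42.6, 43.0, 40.4, 44.3 and 43.7 CPM in WT. Those groups did not overlap (0.20, SE 0.063, adjusted p = 0.021), but the call was lost without glycolytic ECKO replicate 3 (0.19, adjusted p = 0.052), glycolytic ECKO replicate 4 (0.16, adjusted p = 0.095) or glycolytic WT replicate 3 (0.18, adjusted p = 0.055). The interaction was 0.04 (95% interval -0.14 to 0.23, adjusted p = 0.81). Between the muscles Plat differed by -0.06 in WT (95% interval -0.19 to 0.07) and by -0.02 in ECKO (95% interval -0.15 to 0.12).

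These log2 values depend on how libraries are put on a common scale. On the deposited TPM values (transcript abundance scaled to library and length), the median of all tested genes moved by 0.22 between oxidative ECKO and WT, and by 0.11 in glycolytic muscle, -0.18 between muscles in WT, -0.07 between muscles in ECKO and 0.11 in the interaction. There 85.5% and 75.2% of calls were higher in oxidative and glycolytic ECKO, against 45.5% and 47.8% in the count fit, and 16.5%, 23% and 67.6% in the other 3 comparisons, against 50.8%, 45.2% and 44.8%. On that scale Thbd and Tfpi in oxidative muscle stood at -0.11 (adjusted p = 0.27) and -0.17 (adjusted p = 0.2) and were not called, and the Thbd interaction was -0.29 (adjusted p = 0.075), while Plat passed between muscles in WT (-0.26, adjusted p = 0.021). The calls of Procr and F3 held on it in every comparison where they were made on counts. The log2 differences of F3 were smaller on it, at 1.34 between glycolytic ECKO and glycolytic WT, 0.70 between oxidative WT and glycolytic WT, and -0.95 for the interaction (limma on log2(TPM + 0.5)). On counts the corresponding F3 values were 2.15, 1.43 and -1.82 (edgeR's quasi-likelihood test). The 0.5 TPM added before the log exceeds the mean F3 level in glycolytic WT (0.354 TPM), which by itself shrinks these differences. Without it F3 averaged 1.68 TPM in glycolytic ECKO and 0.878 TPM in oxidative WT. The smaller F3 values are therefore not a measure of the change of scale alone.

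Per length, in TPM, the order of the genes differed between the genotypes. In oxidative ECKO, Thbd was highest (117 TPM ± 21.9) and Procr next (53.6 TPM ± 8.4), whereas in oxidative WT Procr led (226 TPM ± 20.6) and Thbd followed (125 TPM ± 4.1, SD, n = 5 each). In glycolytic ECKO, Thbd (103 to 118 TPM) and Procr (98.4 to 106 TPM) overlapped, while in glycolytic WT Procr (142 to 154 TPM) lay above Thbd (94.9 to 102 TPM). Plat and then Tfpi followed in all 4 groups. Plat averaged 27.2 TPM in oxidative ECKO, 19.0 TPM in oxidative WT, 28.1 TPM in glycolytic ECKO and 22.9 TPM in glycolytic WT, and Tfpi averaged 8.83, 10.1, 10.3 and 10.47 TPM in the same groups. F3 (0.354 to 1.68 TPM as group means) and F8 (0.292 to 0.694 TPM) came last. They overlapped in both glycolytic groups and not in the oxidative ones.

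Ratios of TPM within a library set an activity beside the gene that opposes or partners it, each compared by a 2-sided exact permutation test over all assignments of the 10 libraries, adjusted over 8 tests. Since 0.0079 is the smallest p that 5 against 5 libraries allow, 0.011 is the lowest adjusted value here. The ratio of Thbd to Procr stood at 2.01, 1.83, 1.80, 3.40 and 2.17 in oxidative ECKO, against 0.662, 0.565, 0.477, 0.559 and 0.532 in oxidative WT. Thbd thus exceeded Procr in every oxidative ECKO library and in none of the oxidative WT libraries (log2 difference 1.97, exact permutation, adjusted p = 0.011). In glycolytic muscle the ratio lay between 0.989 and 1.15 in ECKO against 0.626 and 0.704 in WT (0.71, adjusted p = 0.011). Between the muscles it differed by 1.02 in ECKO (adjusted p = 0.011) and by -0.24 in WT (adjusted p = 0.036), and the WT value had an adjusted p of up to 0.073 when a library was left out, as with oxidative WT replicate 3 (-0.18), losing the call for every WT library left out save oxidative WT replicate 1.

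The ratio of F3 to Tfpi, tissue factor over its inhibitor, lay between 0.122 and 0.22 in glycolytic ECKO, against 0.0296 and 0.0605 in glycolytic WT, with no overlap (log2 difference 2.01, exact permutation, adjusted p = 0.011). In oxidative muscle it stood at 0.115, 0.144, 0.111, 0.176 and 0.279 in ECKO, against 0.102, 0.099, 0.0995, 0.111 and 0.0738 in WT (0.69, adjusted p = 0.011). The lowest ECKO library barely exceeded the highest WT library, and with CPM in place of TPM the difference was 0.59 (adjusted p = 0.15). In WT the ratio was higher in oxidative than in glycolytic muscle (1.21, adjusted p = 0.011), and in ECKO it was not called (-0.11, adjusted p = 0.7). These ratios have 0.1 TPM added to both genes, beside a mean F3 level of 0.354 TPM in glycolytic WT, so their size depends on it. With 1 TPM added instead, the log2 difference was 0.996 between genotypes in glycolytic muscle, 0.46 in oxidative muscle and 0.53 between WT muscles. Tfpi exceeded F3 in all 20 libraries.

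**Figure D4:**
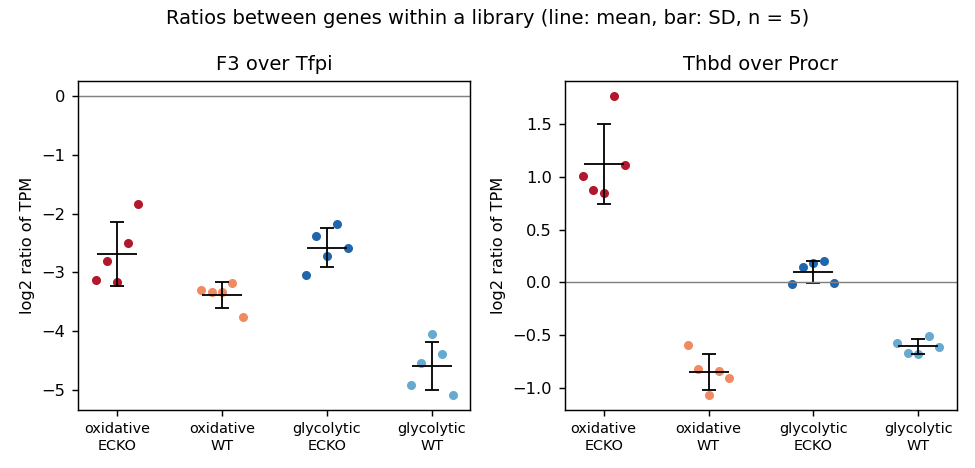
Log2 ratio of TPM (0.1 TPM added to each gene) between genes within each library (points), with the mean (line) and SD (bar) of each group of 5. The Thbd to Procr ratio lies above 0 in all oxidative ECKO libraries and below 0 in all WT libraries, and the F3 to Tfpi ratio of glycolytic ECKO (mean -2.58) lies above that of glycolytic WT (-4.59).

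Of 43 other genes of clotting and fibrinolysis, 23 passed the low-count filter. Those that did not are largely plasma proteins of the liver: Fga, Fgg, F11 and F13b had 0 counts in all 20 libraries, as had the hepatocyte marker Alb. Serpina5 also had 0 counts in all 20 libraries. In oxidative muscle 2 of the 23 were higher and 7 lower in ECKO (median log2 difference 0.0042, beside 0.016 for all tested genes), and in glycolytic muscle 3 were higher and 9 lower (-0.07 beside 0.0041). Between the muscles 6 were higher and 9 lower in oxidative WT (-0.11 beside -0.0033), and 4 higher and 5 lower in oxidative ECKO (0.011 beside -0.0016). The interaction was called for Pros1, S100a10 and Plaur, 3 of 23. The share of the 23 called in either direction was 39.1% between genotypes in oxidative muscle, where 32% of all tested genes were called, and 52.2% in glycolytic muscle, where 29% were. Between muscles it was 39.1% in ECKO and 65.2% in WT, beside 18.4% and 32.4% of all tested genes. For the interaction it was 13%, below the 22.6% of all tested genes. On the TPM scale 11 were higher in oxidative ECKO and 1 was lower in glycolytic ECKO, so these counts move with the shift given above.

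Of 9 tested anticoagulant and protease-activated receptor genes, 1 was higher and 2 were lower in ECKO in oxidative muscle, and 1 was higher and 4 were lower in glycolytic muscle. These are 33.3% called in oxidative muscle, close to the 32% of all tested genes, and 55.6% in glycolytic muscle, beside 29%. Pros1, which encodes protein S, the cofactor of activated protein C, averaged 168 CPM in oxidative ECKO against 146 CPM in oxidative WT (log2 difference 0.21, edgeR's quasi-likelihood test, adjusted p = 0.0034), and 142 CPM in glycolytic ECKO against 164 CPM in glycolytic WT (-0.22, adjusted p = 0.0035). The 2 muscles thus moved in opposite directions, with an interaction of 0.43 (adjusted p = 0.00014), although the glycolytic difference was -0.10 and not called on the TPM scale (adjusted p = 0.17). Hs3st1, whose enzyme makes the heparan sulfate motif that antithrombin binds, was lower in ECKO in both muscles, at 21.4 CPM against 35.0 CPM in oxidative WT (-0.70, adjusted p = 1.1e-06) and 29.0 CPM against 49.3 CPM in glycolytic WT (-0.77, adjusted p = 2.1e-07). The thrombin receptor gene F2r was higher in glycolytic ECKO (61.0 against 45.8 CPM in WT, 0.41, adjusted p = 9.2e-05) and was not called in oxidative muscle (0.17, adjusted p = 0.066). Entpd1, which encodes the surface enzyme that removes platelet-activating ADP, was lower in both ECKO groups on counts (-0.26 and -0.24, adjusted p = 6.6e-05 and 2e-04) and was not called in either on the TPM scale (-0.03 and -0.11, adjusted p = 0.71 and 0.19).

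Of 7 tested procoagulant genes, 3 were called in each muscle, all lower in ECKO (edgeR's quasi-likelihood test). That is 42.9%, where 17.4% of all tested genes were lower in ECKO in oxidative muscle and 15.1% in glycolytic muscle. The 3 were Vwf, F13a1 and F7 in oxidative muscle, and Vwf, F13a1 and Vkorc1 in glycolytic muscle. Vwf, which encodes the platelet-binding von Willebrand factor, averaged 166 CPM in oxidative ECKO against 187 CPM in oxidative WT (log2 difference -0.17, adjusted p = 0.012), and 268 CPM in glycolytic ECKO against 338 CPM in glycolytic WT (-0.33, adjusted p = 1.7e-05). On the TPM scale neither was called, and the oxidative difference turned to 0.11 (adjusted p = 0.26). On counts, with the oxidative ECKO libraries that lack Y-linked RNA alone, the oxidative Vwf difference was -0.14 and not called (adjusted p = 0.11). F13a1, which encodes the A chain of the fibrin-crosslinking factor XIII and is made by macrophages and megakaryocytes, averaged 1.48 CPM in oxidative ECKO against 10.9 CPM in oxidative WT (-2.90, adjusted p = 3.2e-09). F7 averaged 0.246 CPM in oxidative ECKO against 1.84 CPM in oxidative WT (-2.81, adjusted p = 0.00017). In glycolytic muscle F7 was not called (0.10, adjusted p = 0.94), and F13a1 averaged 0.231 CPM in ECKO against 0.719 CPM in WT. On the TPM scale neither F13a1 nor Vkorc1 was called in glycolytic muscle (limma on log2(TPM + 0.5), adjusted p = 0.06 and 0.34). On counts the Vkorc1 call was lost without glycolytic ECKO replicate 5 (-0.14, edgeR's quasi-likelihood test, adjusted p = 0.07). It was also lost without glycolytic WT replicate 2 (-0.16, adjusted p = 0.054) or glycolytic WT replicate 4 (-0.16, adjusted p = 0.05). The 10 immune markers summed to 33.9 to 73.5 CPM in oxidative ECKO against 241 to 320 CPM in oxidative WT, with 6 and 10 of them above 1 CPM and Ptprc, which encodes CD45, at 0.252 against 2.53 CPM. The 6 platelet markers summed to 8.60 to 12.2 CPM against 27.0 to 33.1 CPM, with 3 above 1 CPM in both groups. Most of that difference was Pf4, at 6.20 CPM in oxidative ECKO and 25.7 CPM in oxidative WT. Ppbp stood at 1.07 and 1.00 CPM in oxidative ECKO and oxidative WT, and Gp1bb (0.370 and 0.180 CPM) and Gp9 (0.635 and 0.252 CPM) were above their oxidative WT values in oxidative ECKO, all at low levels. The part of these cells in the F13a1 and F7 differences was not tested.

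Of 7 tested fibrinolysis genes, 1 was higher and 2 were lower in ECKO in oxidative muscle, and 2 were higher and 2 lower in glycolytic muscle (edgeR's quasi-likelihood test). These are 42.9% and 57.1% called, beside 32% and 29% of all tested genes. Plaur, the urokinase receptor gene, went in opposite directions in the muscles. It stood at 160, 162, 171, 120 and 148 CPM in oxidative ECKO, against 246, 308, 290, 276 and 298 CPM in oxidative WT (log2 difference -0.90, adjusted p = 9.5e-11). In glycolytic muscle it stood at 218, 240, 234, 235 and 226 CPM in ECKO, against 146, 132, 141, 141 and 129 CPM in WT (0.74, adjusted p = 5.3e-09). Neither pair of groups overlapped, and the interaction was -1.64 (adjusted p = 2.2e-12). Plau, the urokinase gene, was lower in ECKO in both muscles on counts (-0.75, adjusted p = 5.9e-06, and -0.40, adjusted p = 0.012), and not called in glycolytic muscle on the TPM scale (-0.25, adjusted p = 0.11). Anxa2, which encodes a surface protein that binds tissue plasminogen activator and plasminogen, was higher in ECKO in both muscles, by 0.28 (adjusted p = 2.5e-05) and 0.39 (adjusted p = 1.7e-07). Its partner S100a10 was not called in oxidative muscle and was lower in glycolytic ECKO on counts (-0.21, adjusted p = 0.0025), but not on the TPM scale (-0.12, adjusted p = 0.06). In oxidative muscle, where Plaur was lower in ECKO, the 10 immune markers summed to 33.9 to 73.5 CPM in oxidative ECKO and 241 to 320 CPM in oxidative WT, and their part in the Plaur difference was not tested. In glycolytic ECKO, where F3 and Plaur were both higher, the pericyte and smooth muscle, fibroblast and fibre marker sums given above were higher too, and their part in the Plaur difference was not tested.

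**Figure D5:**
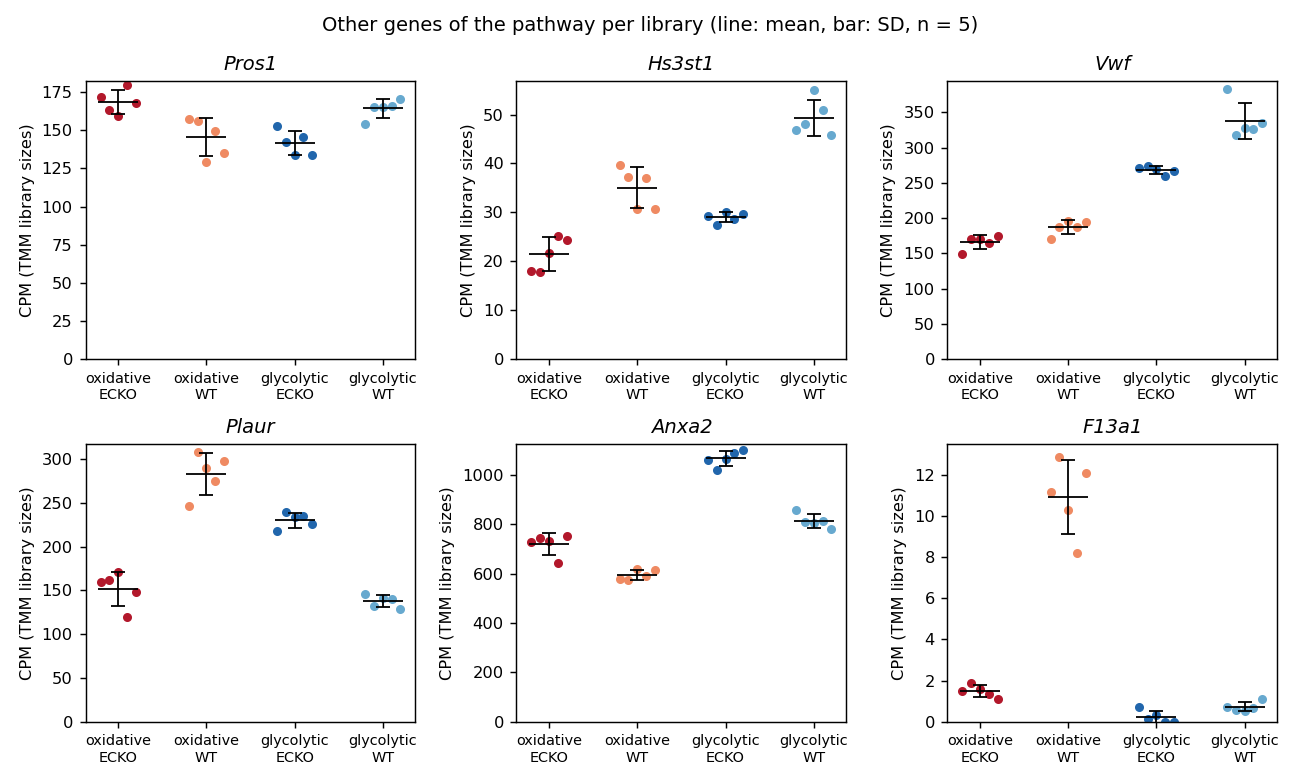
CPM of 6 other genes of the pathway in each library (points), with the mean (line) and SD (bar) of each group of 5, on axes that start at 0. F13a1 has a single group far above the rest, oxidative WT (10.9 CPM), Anxa2 is higher in ECKO in both muscles (721 against 595 CPM and 1068 against 814 CPM), and Plaur is high in oxidative WT (283 CPM) and glycolytic ECKO (230.5 CPM).

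By Pearson's correlation of log2 CPM over the 20 libraries, the genes whose pattern was most like that of Procr were Gclm (r = 0.983), Taldo1 (0.978) and Ran (0.977). For Thbd they were Klk8 (0.943), Egr2 (0.941) and Ramp3 (0.932), for Plat Enpp2 (0.873), Nav1 (0.862) and Pik3ip1 (0.861), and for Tfpi Commd4 (0.889), Por (0.859) and Chchd2 (0.834). For F3 they were Arhgdib (0.88), Fam76a (0.875) and Klf6 (0.859). The best match of F8 reached only 0.662 (Dpf2), then 0.649 (Fut10) and 0.621 (Mrpl44). These values are a description over libraries that fall into 4 groups and are not evidence of a relation within a group.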

How the data were processed

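RNA of CD31+ CD45- endothelial cells from 2 mouse muscles and 2 genotypes was sequenced in 20 libraries, made with a stranded poly(A) kit per the labels' protocols. The authors deposited, per library, estimated counts and TPM for 129439 transcripts. The submitters' processing notes name kallisto and DESeq2, without versions, and the build GRCh38.p13, which is human. The identifiers are mouse, and 128643 were found in GENCODE M21 (GRCm38), which gave gene names and coordinates. Unmatched transcripts held 0.221% of counts or less in each library.

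Estimated counts were summed per gene and rounded, and tested with edgeR 4.0.16 (R 4.3.3): quasi-likelihood test, TMM, filterByExpr, group means of all 20 libraries, Benjamini-Hochberg over 13971 genes. SE values are the log2 difference over the square root of F. Counting error alone makes values at a few counts imprecise. The test was tried on simulated counts first. Ratios used log2 of TPM plus 0.1 (scipy 1.17.1). Alternatives were RLE factors, DESeq2 1.42.0, limma-voom (limma 3.58.1), limma on log2(TPM + 0.5), no filter, the compared groups alone, a replicate block, oxidative ECKO libraries split by Y-linked RNA (above or below 10% of the oxidative WT mean), and leaving out each library.

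The labels do not say whether a replicate number pairs libraries. No pairing was detected, with correlations of same-numbered libraries between -0.0585 and 0.0996, but such values cannot exclude one. The members, lists and tests were chosen with earlier results of these data known. The genes named are the 6 members, Atf4, genes of a fixed pathway list, the 3 genes most correlated with each member (mean of at least 4 CPM) and cell type markers. The pathway genes given with values were picked from the list after their values had been seen. Results that rest on 1 gene of that list, a ratio to a member among them, are not reported here, and the list counts and the adjustment over ratios leave it out.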

Additional observations from a re-analysis of the deposited data

Results flagged for a closer look

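In 7 cases a value stood apart from the other 4 libraries of their group, among 128 groups examined, of which chance alone flags about 1 in 20. F2r stood at 37.3 CPM in glycolytic WT replicate 3, where the others held 46.4 to 48.8 CPM. F2rl1, a protease-activated receptor gene, stood at 3.92 CPM in glycolytic ECKO replicate 5 (others 2.11 to 2.55 CPM) and at 1.26 CPM in oxidative WT replicate 2 (others 2.61 to 3.07 CPM). Vwf reached 383 CPM in glycolytic WT replicate 1, against 317 to 335 CPM in the others. F7 stood at 0.423 CPM in glycolytic ECKO replicate 4, where the others held 0 to 0.111 CPM. Anxa2 was 643 CPM in oxidative ECKO replicate 4, the others 727 to 754 CPM, and the log2 ratio of F3 to Tfpi was -3.76 in oxidative WT replicate 5, the others between -3.34 and -3.17.

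The effect of genotype differed between the muscles by the interaction term of edgeR's quasi-likelihood test for 7 named genes. They are 3 of the 6 members, 3 of the 23 tested list genes (13%) and Atf4, where 22.6% of all tested genes were called. Those in which the ECKO minus WT difference was lower in oxidative than in glycolytic muscle were F3 (-1.82), Procr (-1.68), Plaur (-1.64), Atf4 itself (-0.89) and Thbd (-0.41). It was higher in oxidative muscle for Pros1 (0.43) and S100a10 (0.21, adjusted p = 0.031). The S100a10 call was lost, with an adjusted p of 0.05 to 0.073, without any of oxidative ECKO replicate 4, glycolytic ECKO replicate 2, oxidative WT replicates 2, 3 and 4, or glycolytic WT replicates 2, 3 and 5, where the value ran between 0.17 and 0.21.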

How the results depend on the processing

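RLE factors, DESeq2, limma-voom, the compared groups alone and a pseudocount of 1 TPM for the ratios changed no direction or call of the 6 genes and the ratios. They moved no count of calls by over 1.5 times, except that list genes lower in the interaction were 2 with DESeq2 and with limma-voom in place of 1. That count was also 2 without the low-count filter and with oxidative ECKO libraries that lack Y-linked RNA alone. With the replicate block the 45 values of the 6 genes and counts also kept direction and call (Procr in oxidative muscle -2.32, F3 in glycolytic muscle 2.15). Procr kept its direction and call in all 5 comparisons under every alternative run.

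Without the low-count filter, Plat in glycolytic muscle was 0.17 (adjusted p = 0.11), Thbd between muscles in ECKO 0.18 (adjusted p = 0.044), and in glycolytic muscle Tfpi-201 turned to -0.0058 and Thbd-201 to -0.021. On log2(TPM + 0.5), Thbd in oxidative muscle was -0.11, Tfpi -0.17, the Thbd interaction -0.29 and Plat between muscles in WT -0.26, Tfpi between muscles in WT turned to -0.061 and the F8 interaction to -0.0024. The list counts there were 11 higher in oxidative ECKO, 1 lower in glycolytic ECKO, and 4 higher and 3 lower in the interaction. With the ratio of CPM, F3 over Tfpi in oxidative muscle was 0.59. With oxidative ECKO libraries that carry Y-linked RNA alone, F3 in oxidative muscle turned to -0.23. With those that lack it alone, Thbd in oxidative muscle was -0.12 and its interaction -0.19, the F3 interaction was -1.28, Thbd between muscles in ECKO was 0.39, and F3 (0.15) and Plat (0.068) between muscles in ECKO changed sign. The causes were not tested.

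Leaving out 1 library gave ranges of 0.16 to 0.21 for Plat in glycolytic muscle, -0.069 to 0.030 for Plat and 0.10 to 0.22 for Thbd between muscles in ECKO, 0.14 to 0.26 for Tfpi between muscles in WT, and -0.041 to 0.46 for F3 in oxidative muscle. They were -0.049 to 0.37 for F8 in glycolytic muscle, and in the interaction -0.14 to 0.38 for F8, -0.015 to 0.089 for Plat and -0.36 to -0.23 for Tfpi. List counts ran between 2 and 4 higher in oxidative ECKO, and 1 and 4 higher and 1 and 3 lower in the interaction. The log2 ratios ran between -0.32 and 0.011 (F3 over Tfpi, muscles in ECKO) and -0.30 and -0.18 (Thbd over Procr, muscles in WT). Depth limits F3 and F8, at 4 to 61 counts a library, more than the other 4 genes.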
